A study of Mus musculus with 6 samples.

Results

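The genes of glycolysis, of the pyruvate dehydrogenase step and of the citric acid cycle were followed in PICs and in satellite cells sorted from the hindlimb muscle of young mice. The set was chosen by function, as a list of 39 enzyme genes. A member entered when a probe set of the array named it as its only gene, and the probe set with the highest mean over the 6 arrays stood for it. By this rule 36 of the 39 members had a probe set, out of 18193 genes so named on the whole array. Gpi1, Gapdh and Eno1 were not analysed here. Aldoc, the brain-type aldolase, read 5 on every array, under the low value level of 16, which left 35 members for the tests.

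PICs are cells of the muscle interstitium, named for PW1, which Peg3 encodes. Satellite cells lie against the fibres and serve as the stem cells of muscle. Both came from mice of the strain labelled C57 black 6, aged 7 to 9 days. No treatment and no transgene is given in the labels, and the populations were parted by flow cytometry on CD34 and Sca1 alone, so each is a gate and not a lineage-traced cell type. There were 3 PIC arrays and 3 satellite cell arrays (SAT in the labels), each called a biological replicate, with 200 ng of RNA per array. The labels do not say whether a replicate is 1 mouse or a pool. A value is a linear GCRMA intensity, and a difference is the mean log2 intensity of PICs minus that of satellite cells.

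Glycolysis splits glucose into pyruvate in the cytosol, and lactate dehydrogenase turns pyruvate into lactate and back. Pyruvate dehydrogenase carries pyruvate into the mitochondrial citric acid cycle, and its kinases switch it off. Many of the glycolytic steps can be run by any of several isoenzymes from separate genes, and muscle fibres have their own forms at some steps. The question put by the design is how gene expression differs between the 2 populations at this age.

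The check of the labels came first. Over all genes tested, 28.6% were lower in PICs and 27.6% were higher (limma, adjusted p under 0.05 at any size). All 9 tested markers of myogenic progenitors were lower in PICs (median difference -4.79), among them Pax7, the defining factor of satellite cells, at 236, 87 and 81 in PICs against 3065, 3455 and 3326 in satellite cells. Of 8 tested interstitial markers 7 were higher in PICs, led by Osr1 (5.03) and Pdgfra (3.92). Osr1 read 413, 510 and 276 in PICs against 14, 6 and 20 in satellite cells. It passed the filter mainly through the PIC arrays. Its satellite cell values lie near or under the low value level, so its size is uncertain. The marker named in the definition, Peg3, did not pass (0.19, adjusted p = 0.156, limma; 0.0459 without the filter on low values and 0.0117 with array weights), at 20679 to 21709 in PICs and 17875 to 19812 in satellite cells. The summed markers of leukocytes read 551 on PIC replicate 1 and 71 to 118 on the other PIC arrays, against 691 on satellite replicate 1 and 65 to 75 on the other satellite arrays. The red cell markers were likewise high on the arrays numbered 1, at 2640 in PICs and 1755 in satellite cells, while the highest of the other arrays read 323. Endothelial markers summed to 4512, 3278 and 1227 on PIC replicates 1, 2 and 3, against 2083 to 3128 on the satellite cell arrays. Of these 6 markers 0 passed (limma; 0 at an unadjusted p under 0.05), and 3 were higher in PICs without PIC replicate 3. Handling response genes passed the test in 0 of 7 (limma; 0 at an unadjusted p under 0.05). In bulk samples, fewer cells of a type and less RNA per cell cannot be told apart.

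Citric acid cycle genes fell together in PICs, and the glycolytic genes did not move one way. Of the 35 tested members 20 were lower in PICs and 6 were higher (limma with Benjamini-Hochberg adjustment over 10855 genes, adjusted p under 0.05 at any size of difference). Over all genes tested, 28.6% were lower and 27.6% were higher by this rule, 56.3% together. At a difference of at least 2-fold, 7 members were lower and 5 were higher, against 13% and 16.7% of all genes (29.8% together). The fitted difference was below 0 in 23 members, and in 52.1% of all genes. The median difference of the members was -0.53, against -0.04 over all genes. Of the members 21 had all PIC arrays below all satellite cell arrays and 7 had all PIC arrays above, where over all genes 33.2% and 31.3% were parted in these ways. The median size of a difference was 0.75 in the members and 0.58 over all genes. The median SD between arrays was 0.13 in PICs and 0.10 in satellite cells for the members, and 0.19 and 0.17 for all genes.

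**Figure D1:**
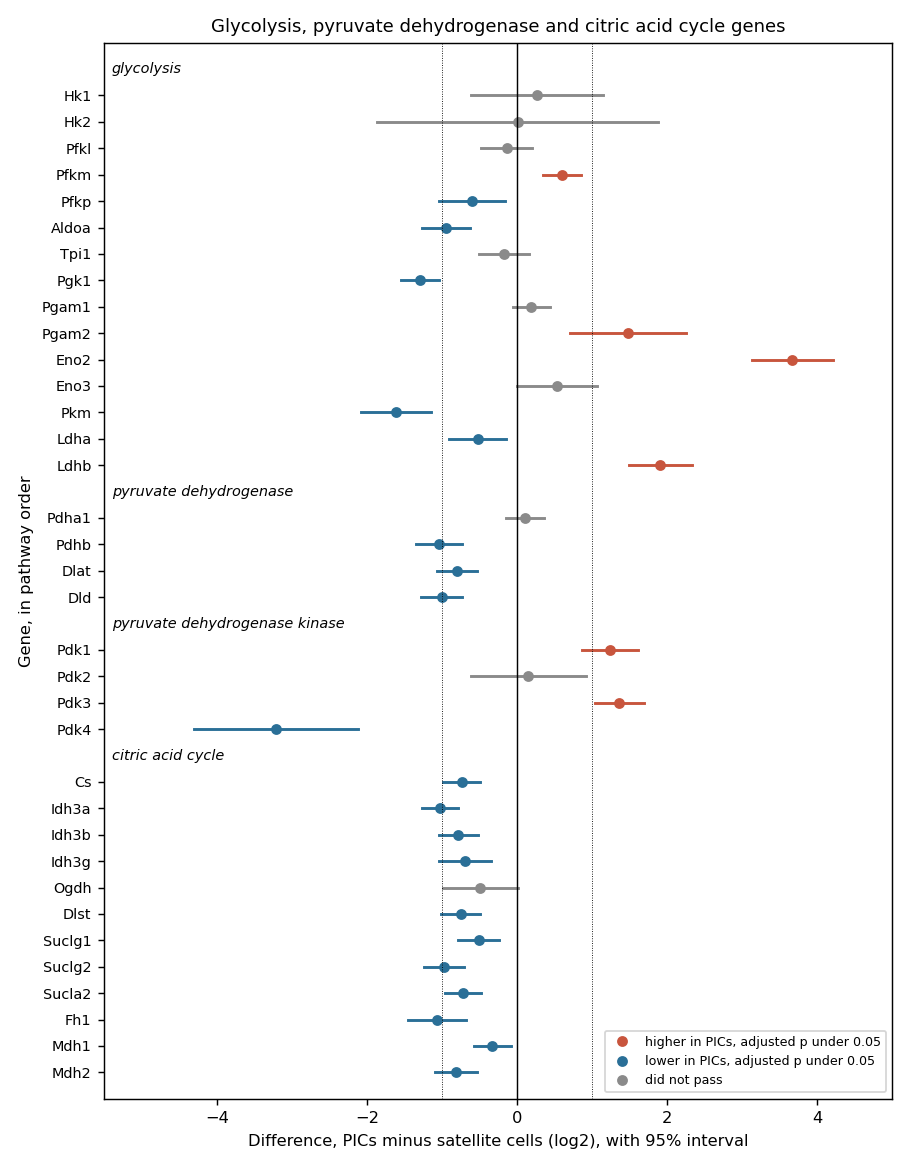
Difference between PICs and satellite cells for the 35 tested members in pathway order (log2, PICs minus satellite cells; points are limma estimates from 3 arrays per population, bars 95% intervals, dotted lines the 2-fold threshold). The 12 citric acid cycle genes lie between -1.06 and -0.33, while glycolytic genes run from -1.61 (Pkm) to 3.67 (Eno2).

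The 2 kinases higher in PICs and the 2 glycolytic genes with the lowest values relative to satellite cells are shown here by the bases before their start sites. Capitals mark ACGTG and GCGTG, read on either strand (CACGT and CACGC), the core letters of the element that hypoxia-inducible factors bind. The sequences are RefSeq promoters of build GRCm38.p6, the 250 bases before the start, 5′ to 3′ on the strand of the gene.
Pgk1 promoter, chrX:106186850-106187099, plus strand: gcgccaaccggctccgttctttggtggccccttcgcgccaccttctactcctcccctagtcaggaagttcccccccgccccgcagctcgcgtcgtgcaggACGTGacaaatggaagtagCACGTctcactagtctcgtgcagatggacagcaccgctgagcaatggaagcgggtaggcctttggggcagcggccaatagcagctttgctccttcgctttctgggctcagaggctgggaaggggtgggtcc
Pkm promoter, chr9:59656977-59657226, plus strand: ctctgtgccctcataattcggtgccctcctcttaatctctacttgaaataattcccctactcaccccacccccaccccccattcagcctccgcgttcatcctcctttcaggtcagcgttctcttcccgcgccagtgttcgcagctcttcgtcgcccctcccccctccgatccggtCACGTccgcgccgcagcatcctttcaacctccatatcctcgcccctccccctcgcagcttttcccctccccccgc
Pdk1 promoter, chr2:71872974-71873223, plus strand: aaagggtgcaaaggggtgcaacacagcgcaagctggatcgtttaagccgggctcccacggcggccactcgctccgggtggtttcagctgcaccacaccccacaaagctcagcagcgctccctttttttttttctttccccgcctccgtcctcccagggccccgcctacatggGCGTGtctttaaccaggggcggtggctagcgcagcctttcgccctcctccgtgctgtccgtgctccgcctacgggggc
Pdk3 promoter, chrX:93832151-93832400, minus strand: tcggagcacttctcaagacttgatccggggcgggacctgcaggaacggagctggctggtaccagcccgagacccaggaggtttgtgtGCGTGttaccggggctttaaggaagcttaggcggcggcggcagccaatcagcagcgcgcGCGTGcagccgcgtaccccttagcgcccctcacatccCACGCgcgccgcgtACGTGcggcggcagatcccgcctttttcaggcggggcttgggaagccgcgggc
Pgk1 holds 2 copies of ACGTG, with first bases 150 and 131 bases before the start. The Pkm promoter shown, the second of 2 in the table, holds 1 copy of ACGTG, and the first holds none. Pdk1 holds 1 copy of GCGTG 78 bases before the start in the promoter shown and none in its other promoter. Pdk3 holds 4 copies, 3 of GCGTG and 1 of ACGTG. The motif thus stood before genes that were lower in PICs and before genes that were higher. Of the 12 members that differed by at least 2-fold, 11 had a promoter in the table, and a motif was found in 3 of 5 genes higher in PICs and in 5 of 6 genes lower in PICs. Over the set, 27 of 38 members with a promoter held a motif (71.1%), against 41.5% of 27025 genes in the table. The median share of G and C was 59% in the member promoters and 52.4% in all promoters, and its part in the counts was not tested. A CACGTG holds ACGTG on both strands and counts as 2 copies. These letters are a description and show no binding.

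Every gene of the citric acid cycle in the set was lower in PICs on all arrays. Of 12 members 11 passed the test, with a median difference of -0.74 and a range from -1.06 to -0.33, against 28.6% lower over all genes. Citrate synthase, encoded by Cs, joins acetyl-CoA to oxaloacetate at the entry of the cycle. Cs read 4318, 4051 and 4528 in PICs against 6988, 7115 and 7408 in satellite cells, a difference of -0.74 (SE 0.10, limma, adjusted p = 0.00124). All 3 PIC arrays lay below all 3 satellite cell arrays.

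Idh3a, Idh3b and Idh3g encode the subunits of the NAD-dependent isocitrate dehydrogenase. Idh3a, the catalytic subunit gene, had 1639, 1672 and 1691 in PICs against 3278, 3546 and 3358 in satellite cells, a difference of -1.02 (95% interval -1.26 to -0.79). The regulatory subunit genes Idh3b and Idh3g differed by -0.78 and -0.69, so the 3 subunit genes moved the same way. The 2-oxoglutarate dehydrogenase complex follows in the cycle. Its succinyltransferase gene Dlst read 1598, 1697 and 1721 in PICs against 2603, 2978 and 2866 in satellite cells (-0.75, adjusted p = 0.00141). Ogdh, the first subunit of that complex, read 1424, 1447 and 950 in PICs against 1850, 1967 and 1486 in satellite cells and did not pass (-0.49, 95% interval -0.99 to 0.01, adjusted p = 0.0873). With the replicate number as a block Ogdh passed (adjusted p = 0.0147).

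Succinate-CoA ligase pairs the shared subunit of Suclg1 with a GTP-forming subunit from Suclg2 or an ATP-forming one from Sucla2. Suclg2 read 780, 921 and 835 in PICs against 1652, 1680 and 1629 in satellite cells (-0.97, limma, adjusted p = 0.00052). Sucla2 differed by -0.72 and Suclg1 by -0.51, each with no overlap between the populations. Suclg2 shifted by -0.25 relative to Sucla2, and the ratio of the 2 genes did not overlap between the populations. The fumarate hydratase gene Fh1 had 1982, 2040 and 1551 in PICs and 3953, 4334 and 3352 in satellite cells, the largest difference of the cycle genes at -1.06 (adjusted p = 0.00174). The mitochondrial malate dehydrogenase gene Mdh2 read 8742, 8578 and 9999 in PICs against 15383, 15553 and 17082 in satellite cells (-0.82). The cytosolic form Mdh1 had the smallest difference, -0.33 (95% interval -0.58 to -0.09, adjusted p = 0.0306), and it did not pass without any 1 of PIC replicates 1 and 2 and the 3 satellite replicates (adjusted p = 0.0619 to 0.105).

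Markers of dividing cells moved with the cycle genes. All 9 tested markers were lower in PICs by at least 2-fold, against 13% of all genes, with a median of -1.87. Mki67, which marks cycling cells, read 2334, 1783 and 2149 in PICs against 6562, 8873 and 9819 in satellite cells. Tyms, at 16, 16 and 15 in PICs, passed the filter through the satellite cell arrays alone. The summed level of the markers was 11836 to 13378 on the PIC arrays and 33421 to 41519 on the satellite cell arrays. Their part in the lower cycle genes was not tested.

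**Figure D2:**
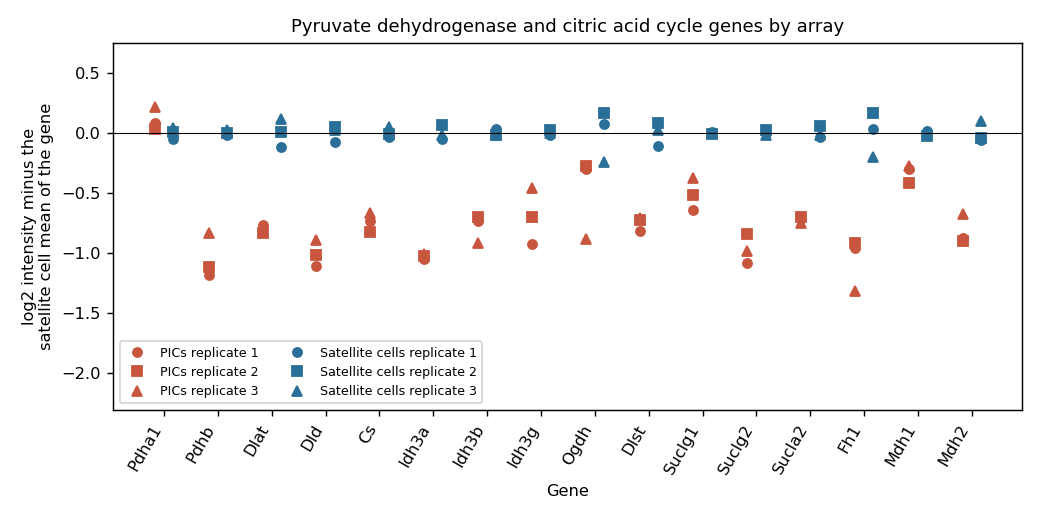
Intensity of each pyruvate dehydrogenase and citric acid cycle gene on each array, on the log2 scale relative to the satellite cell mean of the same gene (PICs left and satellite cells right within a gene, marker shapes for replicates 1 to 3). The PIC points of the 12 cycle genes and of Pdhb, Dlat and Dld lie below the satellite cell points, and those of Pdha1 overlap them.

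Pyruvate dehydrogenase joins several subunits into 1 complex. Of its 4 genes in the set 3 were lower in PICs, against 28.6% of all genes. Pdhb, the beta subunit of the first enzyme, read 1254, 1320 and 1602 in PICs against 2814, 2844 and 2896 in satellite cells, a difference of -1.04 (limma, adjusted p = 0.000707). Dlat, the acetyltransferase core, differed by -0.80. Dld, a dehydrogenase shared with the 2-oxoglutarate complex, was 2.01-fold lower in PICs. The alpha subunit gene Pdha1, which carries the sites that the kinases phosphorylate, did not pass. It read 2136, 2064 and 2346 in PICs and 1951, 2039 and 2082 in satellite cells, with overlap (0.11, 95% interval -0.15 to 0.36, adjusted p = 0.431). A further Pdha1 probe set differed by -0.17, so its sign depends on the probe set.

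Of the 4 kinases of the complex 2 were higher in PICs, 1 was lower and 1 did not pass. Among all genes 27.6% were higher and 28.6% were lower. Pdk1 had 1260, 1247 and 1629 in PICs against 628, 510 and 608 in satellite cells, 2.36-fold higher in PICs (1.24, SE 0.16, limma, adjusted p = 0.000792). Its other 2 probe sets above the filter differed by 1.16 and 1.34. Pdk3 read 375, 442 and 407 in PICs against 159, 139 and 179 in satellite cells, 2.57-fold higher (adjusted p = 0.000328). Both genes were parted without overlap, as were 64.6% of all genes tested.

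Pdk4, the kinase known for its induction by fasting and by fatty acids in muscle, was 9.24-fold lower in PICs. It read 131, 159 and 181 in PICs against 692, 1755 and 2452 in satellite cells, a difference of -3.21 (95% interval -4.30 to -2.11, adjusted p = 0.00129). The satellite cell arrays differed widely among themselves, with replicate 1 lowest, and the lowest of them was still far above the highest PIC array. Pdk2 lay near the low value level, at 48, 42 and 26 in PICs and 26, 49 and 30 in satellite cells, and did not pass (0.15, 95% interval -0.62 to 0.92).

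The isoform genes were also set against each other within each array, which cancels any factor common to both. Of 14 pairs of paralogs, several of which share a gene and are not independent, 12 had ratios that did not overlap between the populations. Single genes did not overlap in 64.6% of all genes tested, and the share for other gene pairs was not computed. In an exact two-sided permutation test each of the 12 pairs reached p = 0.1, the smallest value that 3 arrays against 3 allow. After adjustment over the 14 pairs this p was 0.117, so no pair could pass. Pdk1 shifted by 4.45 relative to Pdk4, and Pdk3 by 4.57. Pdk1 and Pdk3 shifted by only -0.13 against each other, with overlap (exact p = 0.6).

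**Figure D3:**
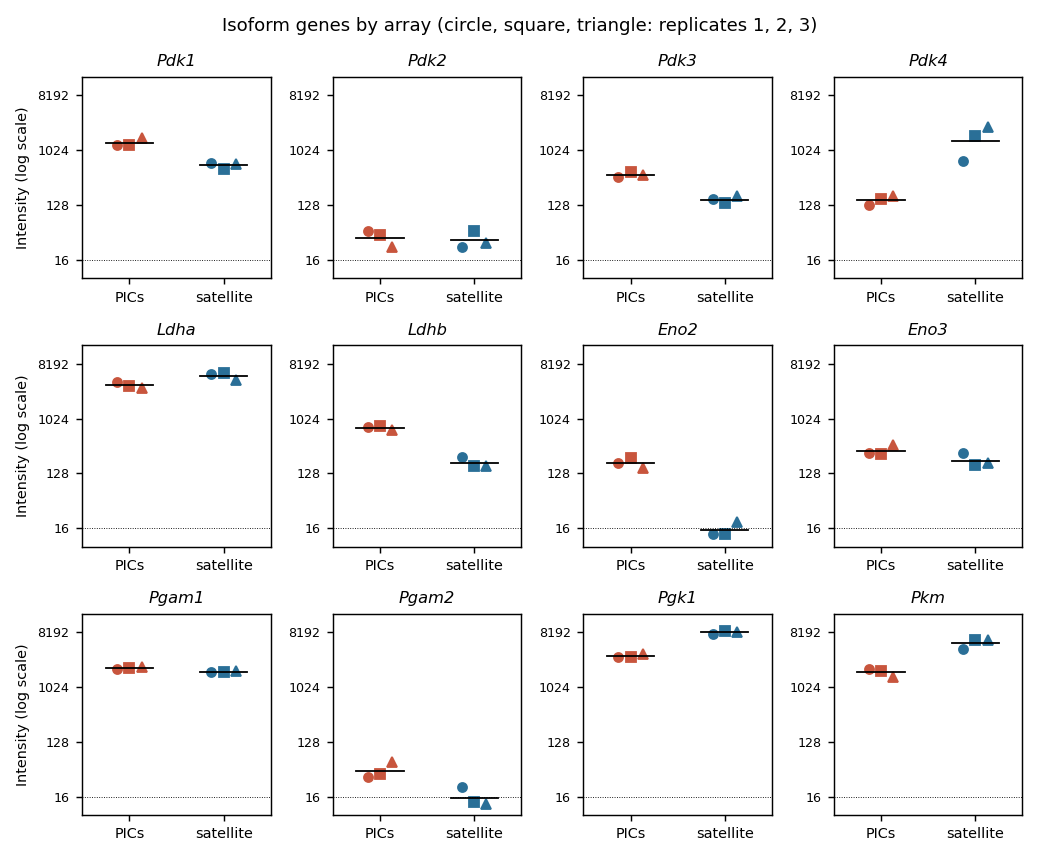
Linear intensity of 12 members on each array on a log scale (PICs left, satellite cells right; shapes mark replicates 1 to 3, bars the mean of the log2 values, the dotted line the low value level of 16). Pdk1, Pdk3, Ldhb, Eno2 and Pgam2 lie higher in PICs, and Pdk4, Ldha, Pgk1 and Pkm lie lower.

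In glycolysis 5 of 15 tested members were lower in PICs, 4 were higher and 6 did not pass, with a median difference of 0.01. These shares lie near those over all genes, 28.6% lower and 27.6% higher. The lower count was 3 without PIC replicate 2 or 3 or without both arrays numbered 1. The entry step is catalysed by hexokinase. Hk1, its broadly expressed form, read 1152, 1049 and 948 in PICs against 474, 1245 and 1119 in satellite cells and did not pass (0.26, adjusted p = 0.571, limma). Satellite replicate 1 alone lay below the other arrays, and without it the difference was -0.17. Hk2, the form typical of insulin-responsive muscle, read 55, 93 and 463 in PICs and 118, 98 and 201 in satellite cells (0.01, 95% interval -1.86 to 1.88). Hk2 was highest on the arrays numbered 3 in both populations, the arrays on which the handling response genes summed highest, to 119547 in PICs and 112623 in satellite cells. The part of handling in Hk2 was not tested.

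Phosphofructokinase, the main control point of glycolysis, has muscle, liver and platelet forms. The muscle-type gene Pfkm read 659, 659 and 711 in PICs against 449, 422 and 471 in satellite cells, 1.51-fold higher in PICs (0.60, limma, adjusted p = 0.00339). The platelet-type gene Pfkp read 266, 229 and 227 in PICs against 324, 318 and 470 in satellite cells (-0.60, adjusted p = 0.0297), and it did not pass without PIC replicate 2 (0.093) or 3 (0.0718), nor without both arrays numbered 1 (0.0618) or 3 (0.0592). Pfkl, the liver-type gene, differed by -0.14 (95% interval -0.48 to 0.21, not passed). The ratio of Pfkp to Pfkm was 1.20 lower in PICs on the log2 scale and did not overlap.

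The steps from fructose bisphosphate to phosphoglycerate gave lower values in PICs or no call. Aldoa, the aldolase of muscle and most other tissues, read 4263, 4484 and 3829 in PICs against 8668, 8625 and 7063 in satellite cells (-0.95, adjusted p = 0.00123). Its 5 probe sets differed by -0.95 to -0.58. Tpi1, which interconverts the triose phosphates, differed by -0.17 (95% interval -0.51 to 0.16). Pgk1, the first enzyme of the pathway to make ATP, read 3196, 3219 and 3481 in PICs against 7614, 8457 and 8146 in satellite cells. It was 2.45-fold lower in PICs (-1.29, SE 0.11, adjusted p = 0.00017), and its 3 probe sets differed by -1.48 to -1.24.

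Phosphoglycerate mutase and enolase have muscle forms, Pgam2 and Eno3, beside a form of most tissues, and Eno2 is the form named for neurons. Pgam1 read 2016, 2049 and 2161 in PICs against 1815, 1759 and 1885 in satellite cells, with no overlap, and did not pass (0.19, adjusted p = 0.154). Pgam2 was higher in PICs near the low value level, at 34, 38 and 60 against 23, 13 and 12 in satellite cells (1.48, adjusted p = 0.00806). Eno2 read 191, 229 and 158 in PICs against 13, 13 and 20 in satellite cells, a fitted difference of 3.67 (SE 0.23, adjusted p = 8.02e-05) and 12.7-fold on the linear scale. Of the satellite cell arrays of Eno2 and of Pgam2, 2 each lay under the low value level, so these sizes are uncertain. Eno2 and Pgam2 passed the filter mainly through the PIC arrays. Schwann cell markers, from the nerves of muscle, summed to 191 to 293 on the PIC arrays against 50 to 131 on the satellite cell arrays. S100b read 147, 141 and 148 in PICs against 71, 26 and 32 in satellite cells (adjusted p = 0.00466). Sox10, the defining factor of that lineage, read 146, 78 and 43 in PICs against 60, 24 and 27 in satellite cells (adjusted p = 0.0923, but 0.00779 with the replicate block, 0.0336 without PIC replicate 3 and 0.0434 without satellite replicate 1). The part of these markers in the Eno2 difference was not tested. Eno3 read 273, 270 and 370 in PICs and 274, 173 and 190 in satellite cells and did not pass (0.53, 95% interval 0.0023 to 1.06, adjusted p = 0.0805). Without satellite replicate 1 the difference of Eno3 was 0.73 (adjusted p = 0.0242).

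Markers of adult fibres did not go one way. Of 13 tested fibre markers 7 were higher in PICs and 3 were lower, against 27.6% and 28.6% of all genes. The count of 7 was 1 without PIC replicate 1 or without satellite replicate 2 or 3, and 2 without PIC replicate 3. It was 0 without PIC replicate 2, without both arrays numbered 3 or with no filter on low values, and 9 without satellite replicate 1. The summed level of the list was 7043 to 8461 on the PIC arrays against 11117, 6839 and 5002 on satellite replicates 1, 2 and 3. Ckm, the creatine kinase of fibres, read 209, 191 and 290 in PICs against 222, 42 and 20 in satellite cells (1.99, adjusted p = 0.0832; 2.96 and 0.00194 without satellite replicate 1). Satellite replicate 1 was thus the highest satellite array for Ckm, Eno3 and Pgam2 alike. Tnnt3, the fast troponin T, read 362, 413 and 608 in PICs against 241, 43 and 24 in satellite cells (2.84, adjusted p = 0.0242; not passed without any 1 of the PIC arrays or satellite replicate 2 or 3, 0.0519 to 0.0802, or without both arrays numbered 3, 0.135). The markers Atp2a1 (-4.49), Myh1 (-2.85) and Actn3 (-1.54) went the other way. The part of fibre RNA in Pgam2, Eno3 and Pfkm was not tested.

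The end of the pathway gave opposite directions for its enzymes. Pkm, the pyruvate kinase of most tissues, read 2039, 1868 and 1467 in PICs against 4349, 6072 and 6047 in satellite cells, 3.06-fold lower in PICs (-1.61, limma, adjusted p = 0.000653). The 1 probe set does not part its splice forms. Ldha, the lactate dehydrogenase subunit that predominates in fast muscle, read 4043, 3575 and 3240 in PICs against 5553, 5830 and 4331 in satellite cells (-0.53, adjusted p = 0.0292). It did not pass without PIC replicate 2 or 3 or satellite replicate 1 or 2 (0.0716 to 0.101). Ldhb, the subunit that predominates in heart, read 735, 785 and 651 in PICs against 241, 171 and 172 in satellite cells, 3.76-fold higher (1.91, adjusted p = 0.000228). Its 4 probe sets differed by 1.66 to 1.91. Relative to Ldha, Ldhb shifted by 2.44 towards PICs, with no overlap between the populations.

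Other genes of the same pathways were counted from lists that do not hold the members. Among all genes tested, 28.6% were lower in PICs and 27.6% were higher. Of 19 further genes of pyruvate and citrate metabolism 9 were lower in PICs and 3 were higher, with a median of -0.37. Among them the structural subunits of succinate dehydrogenase, the cycle enzyme that sits in the respiratory chain, differed by -0.65 for Sdha, -0.55 for Sdhc and -0.72 for Sdhd (adjusted p = 0.00728, 0.00797 and 0.0121). Sdhb differed by -0.26 and did not pass (adjusted p = 0.102; 0.0442 without both arrays numbered 3 and 0.00731 with array weights). Idh2, the mitochondrial NADP-dependent isocitrate dehydrogenase, was lower by a similar step (-0.79). Pdp1, a phosphatase that reactivates pyruvate dehydrogenase, read 279, 287 and 379 in PICs against 848, 972 and 970 in satellite cells, 2.98-fold lower in PICs. Pdhx, the binding protein of the complex, differed by -1.14. Me3, a mitochondrial malic enzyme, read 4 on every PIC array against 55, 62 and 34 in satellite cells, at least 3.05-fold lower in PICs. Me3 passed the filter through the satellite cell arrays alone. The 3 higher genes were the citrate carrier gene Slc25a1 (1.43), Pck2 (1.30), which makes phosphoenolpyruvate in mitochondria, and Pdp2 (1.04), a second phosphatase, near the low value level at 31 to 61 in PICs and 17 to 27 in satellite cells. Pdp2 did not pass without PIC replicate 1 or 2, satellite replicate 2 or 3, or both arrays numbered 1 (adjusted p = 0.0564 to 0.0785).

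Transport genes went both ways, with 4 of 8 higher in PICs and 3 lower (4 lower with the replicate block). The shares over all genes were 27.6% higher and 28.6% lower. Slc2a1, the basal glucose transporter of most cells, read 1444, 1223 and 1648 in PICs against 362, 316 and 529 in satellite cells, 3.64-fold higher (limma, adjusted p = 0.00064). Slc2a3, a high-affinity glucose transporter, did not pass (-1.09, adjusted p = 0.183, but 0.00332 with the block and 0.0319 without PIC replicate 1). The lactate and pyruvate transporter gene Slc16a1 read 5421, 5902 and 6101 in PICs against 1855, 1913 and 2369 in satellite cells (1.51). Its chaperone Bsg was higher as well (1.13). Slc2a4, the insulin-responsive glucose transporter of muscle and fat, read 53, 51 and 46 in PICs against 105, 113 and 91 in satellite cells (-1.04, adjusted p = 0.00074). Slc2a12 was at least 3.15-fold lower in PICs, where all arrays lay under the low value level, so it passed the filter through the satellite cell arrays alone.

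Of all genes, 27.6% were higher in PICs and 28.6% lower, the shares beside which the counts that follow stand. In glycogen metabolism 3 of 9 tested genes were higher in PICs and 3 were lower (1 lower without both arrays numbered 1). The phosphorylases, which release glucose units from glycogen, parted by form. Pygb, the brain form, read 800, 799 and 975 in PICs against 238, 241 and 308 in satellite cells (1.71, adjusted p = 0.000228). Pygl, the liver form, differed by 2.39 (adjusted p = 0.0132) with satellite replicate 1 at 335 and the other satellite arrays at 66 and 88, and it did not pass without both arrays numbered 3 (0.0962). Pygm, the muscle form, was lower in PICs (-0.64, adjusted p = 0.0113). Ugp2, which makes the UDP-glucose used for glycogen, differed by 1.14. Among 11 other tested genes around glycolysis 2 were higher in PICs, led by Pgm1 (1.57), which links glycogen to glycolysis, and 2 were lower. The lower count was 1 without PIC replicate 2, any 1 satellite replicate or both arrays numbered 1. In the pentose phosphate pathway 1 of 6 genes was higher in PICs and 2 were lower. Tkt, transketolase, was higher (1.80, adjusted p = 0.0113; not passed without both arrays numbered 3, 0.0762), and Taldo1, transaldolase, and Rpia, an isomerase of ribose phosphate, each differed by -1.01.

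Regulators of energy metabolism were lower in PICs in 6 of 9 tested genes, against 28.6% of all genes. None was higher (limma, and 0 higher also at an unadjusted p under 0.05). The median was -0.66 in the list and -0.04 over all genes. With the replicate block 7 were lower, since Myc, a driver of growth and glycolytic genes, then passed. Myc read 148, 276 and 621 in PICs against 558, 817 and 1572 in satellite cells (-1.61, adjusted p = 0.0572, but 0.00106 with the block and 0.0159 without PIC replicate 3), lower in PICs at each replicate number and overlapping between the populations. Ppargc1b, a coactivator of mitochondrial genes, read 16, 10 and 9 in PICs against 190, 159 and 114 in satellite cells, at least 9.44-fold lower in PICs. Esrrg, a nuclear receptor of oxidative metabolism, was at least 2.66-fold lower. Ppargc1b and Esrrg passed the filter through the satellite cell arrays alone, and they are the only 2-fold calls in the count of 6. Ppargc1a, a relative of Ppargc1b, did not pass (0.11, adjusted p = 0.548), at 27 to 30 in PICs and 23 to 32 in satellite cells.

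**Figure D4:**
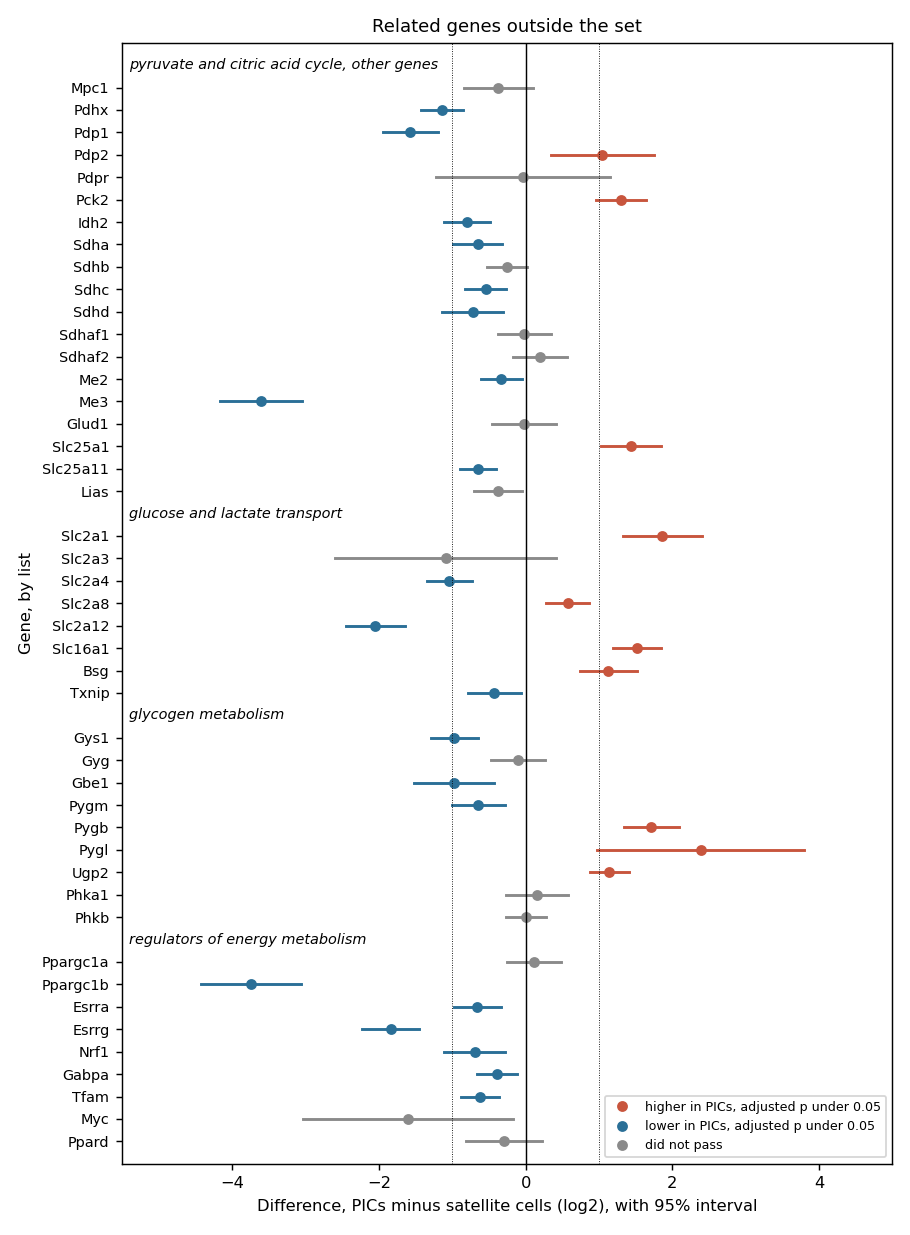
Difference between PICs and satellite cells for 45 tested genes outside the set in 4 lists (log2, PICs minus satellite cells; limma estimates from 3 arrays per population with 95% intervals, dotted lines the 2-fold threshold). Slc2a1, Slc16a1 and Bsg lie above 1, and Ppargc1b, Me3, Esrrg and Pdp1 lie below -1; the fitted sizes of Ppargc1b, Me3, Esrrg and Slc2a12 rest on PIC values under the low value level.

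Over all genes 27.6% were higher in PICs and 28.6% lower, and of 17 tested genes of the hypoxia response 5 were higher and 2 lower. The median of these 17 genes was -0.06. With the replicate block 6 were higher and 3 lower, by the growth factor gene Vegfa (0.81, adjusted p = 0.143, and 0.0334 with the block) and the stress gene Ddit4 (-1.08, 0.074, but 0.0413 with the block and 0.00141 without PIC replicate 3). The transcription factor gene Hif1a did not pass (-0.11, adjusted p = 0.423), at 2750 to 2941 in PICs and 2841 to 3364 in satellite cells. The genes higher in PICs were led by P4ha2 (2.71) and P4ha1 (1.77), which encode collagen prolyl hydroxylases, followed by Adm (1.68, adjusted p = 0.0231) and Ero1a (1.31). Adm, a vasoactive peptide gene, did not pass without PIC replicate 2 or satellite replicate 1 or 2 (0.0509 to 0.0687). Ndrg1, a stress response gene, was lower in PICs (-1.03).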

How the data were processed

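Transcript levels were measured on 1-colour Affymetrix arrays, 3 of PICs and 3 of satellite cells. Per the submitters' processing notes, the deposited intensity values come from GCRMA, a background correction by probe sequence followed by quantile normalization and 1 summary per probe set; no version of it is given in the sources used here. These deposited intensities are linear and rounded to whole numbers, no lower than 2, and the median was 10 on every array, so steps between low values are coarse on the log2 scale. Their precision is limited by the number of arrays. The values were taken to log2 here. The deposited table holds 45037 probe sets, with a single gene symbol for 34945, several for 932 and none for 9160; 34741 of the symbols were matched by gene number to RefSeq names of GRCm38.p6. Probe sets above 4 on the log2 scale (intensity 16) on at least 3 of 6 arrays were kept, and the one with the highest mean over 6 arrays was used per gene, giving 10855 genes. Differences were tested with limma 3.58.1 in R 4.3.3 (lmFit and eBayes, two-sided) with Benjamini-Hochberg adjustment. A run on simulated data came first, with few changed genes, changes past 2-fold and no pairing of arrays. It checked the steps only and does not resemble these data. A population at or under 4 on all arrays has only a bound, from 4 to the mean of the other. Motifs were searched in RefSeq promoters.

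The members and lists were chosen with earlier results of these data known. All members are named; of other lists, up to 4 genes of largest size per direction among those past 2-fold. Pax7, Peg3, Idh2, the succinate dehydrogenase genes, Ckm, Pygm, Ppargc1a, Hif1a, Sox10, S100b and the genes given for the replicate block are named beyond that rule, with their values already seen. Each replicate number occurs once in PICs and once in satellite cells, with no word in the labels on what an equal number means. Deviations from the population means correlated across genes at 0.623, 0.222 and 0.579 for equal numbers. For unequal numbers the values were -0.568 to 0.0363. Deviations within a population cancel out, so the values for equal and unequal numbers are not independent. Each equal-number value lay above every unequal one, and it was lowest for replicate 2 (0.222). Because the values are not independent and the labels are silent, whether the numbers pair the arrays is not settled here. The main tests are without a block for the replicate number. That block was run as an alternative, and calls that change with it depend on this choice. Scan batches were not analysed here. Alternatives changed the filter, probe set rule, scaling, pseudocount, variance model, weights and arrays used.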

Additional observations from a re-analysis of the deposited data

How the results depend on the processing

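Under 9 other settings with all arrays kept, the 12 members past 2-fold kept their call with these exceptions. Idh3a lost it with the mean of a gene's probe sets, and without probe sets whose names end in _x_at, _s_at or _a_at. Pgam2 and Dld lost it with a pseudocount of 16. Pgam2 was untested under the stricter filter. Eno2, Ldhb and Fh1 were untested without the suffixed probe sets, which left 23 members with a value. Members past 2-fold were then 3 higher in PICs, and at any size 13 were lower. With no size threshold, 20 members were lower in PICs, as were 3108 of all genes and 27 of the further pathway lists, and 2998 of all genes were higher. Leaving out 1 array gave 4 to 8 members lower by 2-fold and 5 higher, and 17 to 19 lower and 6 to 7 higher at any size; Dld, Pdhb, Idh3a and Fh1, all within 0.1 of the threshold, lost the 2-fold call in 1 or more of these, and without satellite replicate 2 the count was 4. Over all genes the 2-fold counts were 1699 to 1849 higher and 1330 to 1466 lower, and in the further lists 12 to 15 and 9 to 12. With the replicate block 34 of 35 members kept direction and side of the threshold, Ogdh alone passing (-0.49, adjusted p = 0.0147); of the listed genes outside the set Pfkfb3 (0.0435), Lias (0.0208), Slc2a3, Vegfa, Ddit4, Myc and Sox10 gained the call and Me2 (0.0552) lost it. Without both arrays numbered 1 (chosen after their marker levels were seen) 7 members were higher and 16 lower at any size, 5 and 5 by 2-fold; Pfkp, Ldha, Suclg1 and Mdh1 no longer passed (adjusted p = 0.0618 to 0.134), nor did Sdhc (0.0675), Sdhd (0.0746) and Pygm (0.071). Without both numbered 3, chosen likewise, 6 were higher and 20 lower. Without the filter on low values Pfkp (0.0882) and Ldha (0.0732) did not pass and Pgam1 did (0.0289), and of other genes Tkt (0.0632), Pygl (0.0725), Pdp2 (0.0913), Adm (0.105) and Tnnt3 (0.112) did not. The cause was not tested.

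Among the members, the other named genes and the isoform ratios, the sign changed under these alternatives in Hk1, Hk2, Pdha1, Pdk2 and 2 ratios. None of these genes passed its test, and no ratio could pass. Hk1 was -0.0256 with array weights, -0.17 to 0.52 without 1 array (lowest without satellite replicate 1) and -0.24 without both arrays numbered 1. Hk2 was -0.0025 with centred arrays, -0.19 with weights, -0.59 without both arrays numbered 3, and -0.89 to 0.65 without 1 array, below 0 without PIC replicate 3 (-0.89) or satellite replicate 1 (-0.07) or 2 (-0.21). Pdha1 was -0.0331 with the mean of probe sets. Pdk2 was -0.0344 with weights, -0.0349 to 0.42 without 1 array (below 0 without PIC replicate 1 or satellite replicate 1), and -0.21 without both arrays numbered 1. Hk2 relative to Hk1 shifted by -1.23 to 0.45 without 1 array, above 0 without PIC replicate 1 or 2 or satellite replicate 1. Pdk1 relative to Pdk3 shifted by -0.25 to 0.00092, the last without PIC replicate 2.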
